A study of Homo sapiens with 24 samples.

Results

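The 24 RNA sequencing libraries of H1299 cells fell into 2 states that both occurred in every cell line, with 12 libraries in state 1 and 12 in state 2. The libraries were chosen by a measured value, the gene length trend of each library. To obtain it, log2 CPM (counts scaled to the library total and to a TMM factor) was centred for each gene on the average of the 24 libraries, and the centred values of a library were correlated with the exonic lengths of the genes. Libraries with a positive Spearman correlation, in which long genes were relatively high, are in state 1, and those with a negative correlation, in which short genes were relatively high, are in state 2. The correlations were 0.187 to 0.303 in state 1 (median 0.221) and -0.270 to -0.116 in state 2 (median -0.242). The libraries closest to 0 were replicate 1 of the Δ133p53β5 line with 0.187 in state 1 and replicate 1 of the vector control with -0.116 in state 2.

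H1299 cells are a human line of non-small cell lung cancer without p53. The libraries came from cells with the empty vector, named NULL in the labels, and from 5 clonal lines that carry a plasmid for a shortened p53 isoform, namely Δ133p53α in the α1, α2 and α8 lines and Δ133p53β in the β5 and β10 lines. Each Δ133p53 line is 1 clone, each of the 6 lines has 4 libraries, and nothing in the sources says whether these came from separate cultures, so the p-values given here measure the spread between libraries, which may be technical. For Δ133p53β5 and Δ133p53β10 the labels give 3 and 5 libraries while the count columns name 4 of each, and the library in question, which is in state 2, was counted in Δ133p53β5. State 2 holds 1 library of the vector control, 3 of α1, 1 of α2, 1 of α8, 3 of β5 and 3 of β10. The library that stood alone against the other 3 of its line was replicate 1 in 5 of the 6 lines and replicate 2 in α8. The labels give no batch, date or culture for any library.

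In poly(A) RNA sequencing, mRNA is captured by its tail, broken into fragments, copied from random primers and amplified, and how well a gene's fragments pass these steps depends on their length and on their content of G and C. The state of a culture also moves sets of genes together, since ribosomal and oxidative phosphorylation genes follow growth, glycolytic and hypoxia genes follow glucose and oxygen, stress genes follow nutrients and protein folding, and matrix genes and the targets of the YAP and TEAD factors follow adhesion and cell density. In bulk RNA, fewer cells that express a gene and less of its RNA in every cell cannot be told apart.

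Because expression values sorted the libraries, the difference between the states is described without a test, as the log2 difference in CPM of state 2 minus state 1 with the line as a term, with its SD over the 6 lines. Of 17990 genes measured, 1994 (11.1%) were counted as higher in state 2, with a log2 difference of at least 1 and the same sign in 6 of 6 lines, and 2103 (11.7%) were counted as lower. In 1208 genes (6.71%) every state 2 library lay above every state 1 library, and in 1077 genes (5.99%) every one lay below. The balance of the counts depended on the scale. The TMM factors were 1.06 to 1.23 in state 1 and 0.752 to 1.03 in state 2, and with the total counts as the only scale the median of all genes was -0.26 in place of 0.00303, with 854 genes higher and 3410 lower. After each library's smooth trend with exonic length and GC content was removed, 784 genes were higher and 1160 lower, of which 461 and 962 had been counted before the removal.

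The genes that were higher in state 2 were short and rich in G and C. Their median exonic length was 2149 nt and their median GC content 59.6%, against 5734 nt and 43.0% for the lower genes and 4306 nt and 48.3% for all 17864 genes with both properties. Across these genes, which are not independent replicates, the Spearman correlation of the log2 difference was 0.54 with GC content, -0.33 with exonic length, -0.41 with the length of the canonical transcript, -0.37 with the span in the genome and 0.09 with the mean CPM. Because the libraries were sorted on exonic length, the trends with length follow at least in part from the sorting, and nothing is read from their presence. The sorting did not use GC content, but both were set against the same expression values.

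Length and GC content each went with the difference at a given value of the other, where the trend with length follows at least in part from the sorting. Genes were divided into 5 equal bins by GC content and 5 by exonic length. In the bin with the highest GC content the median log2 difference was 0.91 for the shortest genes and 0.39 for the longest, and in the bin with the lowest GC content it was -0.13 and -0.79. Of the 1017 longest genes with the lowest GC content, 0 were counted as higher and 308 as lower. Of the 948 genes of 1725 to 3418 nt with the highest GC content, 419 were counted as higher and 11 as lower. Processed pseudogenes, most of them short, were not on one side, with 183 of 875 counted as higher and 156 as lower.

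**Figure D1:**
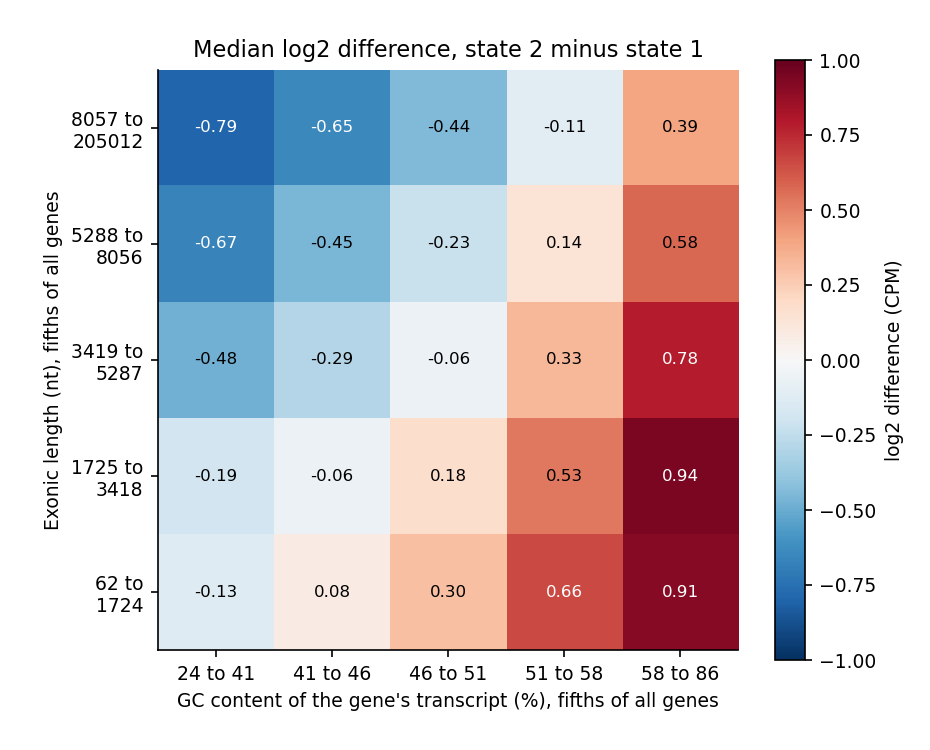
Median log2 difference in CPM of state 2 minus state 1 (colour and printed number) for genes in 5 bins of exonic length (nt) and 5 bins of GC content (percent). The medians run from -0.79 for the longest genes with the lowest GC content to 0.94 for genes of the second shortest bin with the highest GC content. The trend with length follows at least in part from the sorting.

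The trend with GC content did not sort the libraries in the same way. In state 1 its correlation was negative in 12 of 12 libraries, from -0.623 in replicate 4 of α8 to -0.0305 in replicate 2 of the vector control. In state 2 it was 0.157 to 0.661 in 9 libraries and negative in the other 3, namely -0.137 and -0.267 in replicates 2 and 3 of β5 and -0.241 in replicate 4 of β10. The states therefore overlapped in the GC trend, while within each of the 6 lines its mean was higher in state 2.

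**Figure D2:**
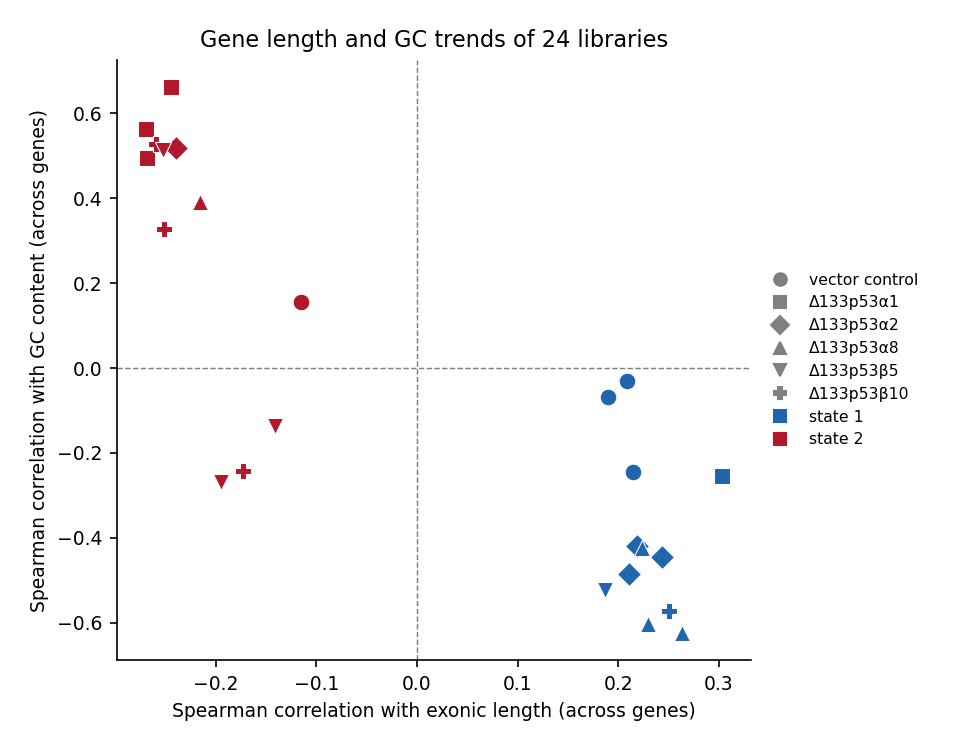
Spearman correlation of each library's deviations with exonic length (horizontal axis) and with GC content (vertical axis) for the 24 libraries, with a symbol for each line, blue for state 1 and red for state 2. State 1 lies right of 0 and state 2 left of 0 on the axis that sorted them, and 3 state 2 libraries of the Δ133p53β lines lie below 0 on the GC axis.

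The shares of the counts that went to short and to long genes follow in part from the sorting on exonic length, and nothing is read from their separation. Of 4 equal bins of genes by exonic length, the longest took 30.2% to 32.8% of the counts in state 1 and 19.7% to 26.0% in state 2, and the shortest 13.7% to 15.5% and 16.3% to 22.3%. The 79 cytosolic ribosomal protein genes took 5.53% to 7.45% and 9.04% to 13.7%, and the 3 state 2 libraries with a negative GC trend had 9.77%, 9.90% and 11.5%. The ribosomal share did not overlap between the states, and these genes were among those whose values sorted the libraries. The top 100 genes took 21.1% to 23.7% in state 1 and 24.4% to 30.6% in state 2, again with no overlap, and 16504 to 17721 and 15812 to 17077 genes had at least 10 counts, with overlap.

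**Figure D3:**
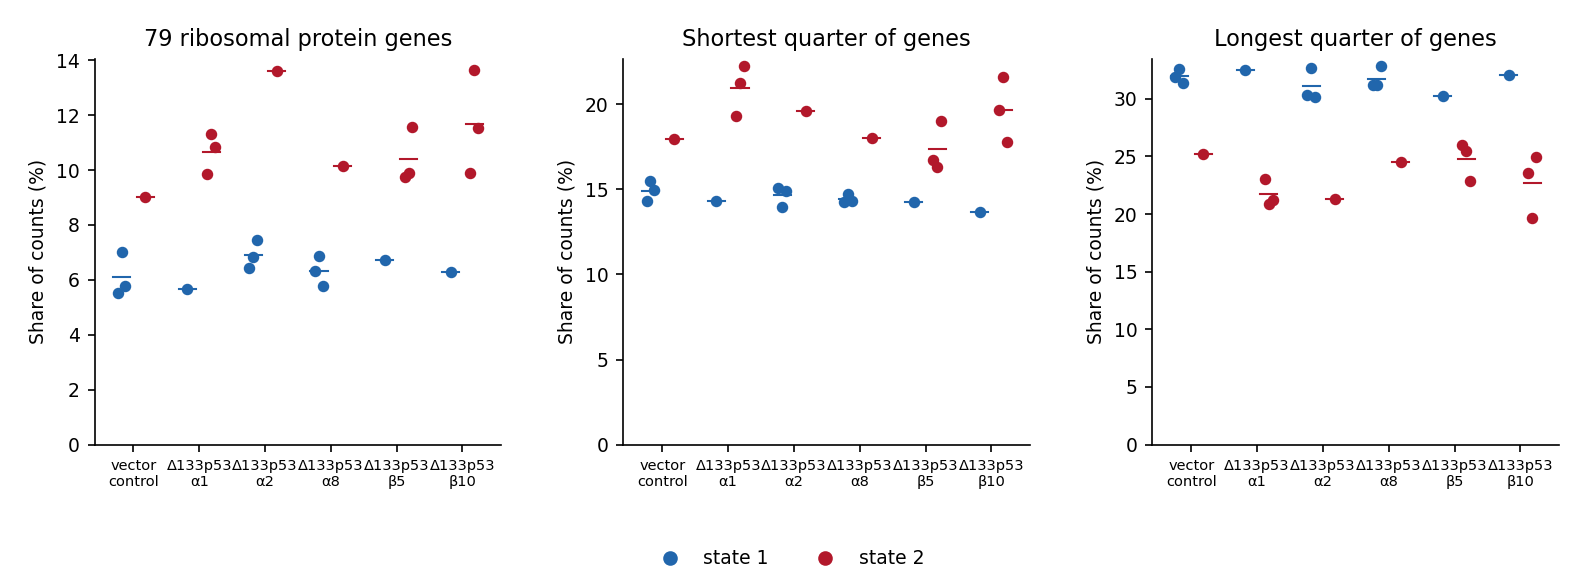
Percent of each library's counts (vertical axes) that fell on ribosomal protein genes and on the shortest and the longest of 4 equal bins of genes by exonic length, by line, with 1 point for each library and a bar at the mean, blue for state 1 and red for state 2. In each of the 6 lines the ribosomal share was higher in state 2, 9.04% to 13.7% against 5.53% to 7.45%, and the share of the longest genes, which follows in part from the sorting, was lower.

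The total count, which the sorting did not use, was 21531599 to 21968130 in state 1 and 21758801 to 25381731 in state 2. The mean difference within lines was 1043334 counts (SD 1493600, n = 6 lines), with state 2 higher in 5 of 6 lines and p = 0.00342 in an exact two-sided permutation test over the placements within lines. The highest totals were those of 3 state 2 libraries, replicate 1 of the vector control and replicates 3 and 4 of β10. Without the first the difference was 541189 counts (exact permutation p = 0.0771), and without all 3 it was 102901 (exact permutation p = 0.0859). The gene counts without the 3 libraries were 2138 higher and 2650 lower.

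Replicate 3 of the vector control, in state 1, stood apart from the other 23 libraries in its cell cycle genes. Its S phase genes summed to 2759 CPM against 4998 to 6820 CPM elsewhere, its G2 and mitosis genes to 5682 against 9154 to 11759 CPM, and its heat shock genes to 7806 against 13539 to 23502 CPM. The epithelial keratins KRT8 and KRT18 and vimentin were present in every library. The epithelial list summed to 877 to 3755 CPM in state 1 and 1654 to 7739 CPM in state 2. Of its 6 genes 3 passed the filter on low counts, namely KRT8, KRT18 and KRT7, and KRT7 had at most 8.55 CPM. KRT19 and EPCAM did not pass, and the epithelial cadherin CDH1 had at most 3 counts in any library. The mesenchymal list, which holds VIM, summed to 1812 to 4311 CPM and 2222 to 5207 CPM. These sums are mostly VIM, which had 1739 to 4228 CPM in state 1 and 2169 to 5175 CPM in state 2. The log2 difference was 0.57 for VIM, but -0.65 for CDH2, -1.26 for ZEB1 and -0.67 for FN1. FN1 was not lower in every line, as it differed by 0.75 in α8. After removal of the trend with exonic length and GC content the values of CDH2, ZEB1 and FN1 were -0.11, -0.54 and -0.25. Fibroblast, endothelial and leukocyte markers summed to at most 2.56, 2.02 and 0.684 CPM, and COL1A2, COL3A1, LUM, PTPRC, CD3E and LYZ had at most 3 counts in any library.

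Short stretches of sequence show in part the GC content of transcripts on either side, but not their length. Below are 90 bases from the middle of the coding sequence of the canonical transcript (GENCODE annotation, GRCh38), with G and C in capitals, for 2 of the genes with the largest positive differences, 2 of those with the largest negative differences and 2 genes that went against the trends.
CYBA: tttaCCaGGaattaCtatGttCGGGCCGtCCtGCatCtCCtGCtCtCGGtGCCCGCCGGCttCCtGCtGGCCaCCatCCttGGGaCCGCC
TSPO: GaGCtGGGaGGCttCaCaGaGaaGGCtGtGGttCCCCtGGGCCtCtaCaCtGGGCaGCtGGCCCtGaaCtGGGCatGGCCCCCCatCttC
NFAT5: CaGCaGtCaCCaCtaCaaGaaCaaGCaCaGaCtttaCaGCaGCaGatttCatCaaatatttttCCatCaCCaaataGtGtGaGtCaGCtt
SLC4A7: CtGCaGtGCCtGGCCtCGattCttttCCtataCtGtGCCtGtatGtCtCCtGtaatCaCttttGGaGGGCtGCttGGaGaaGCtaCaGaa
KMT2D: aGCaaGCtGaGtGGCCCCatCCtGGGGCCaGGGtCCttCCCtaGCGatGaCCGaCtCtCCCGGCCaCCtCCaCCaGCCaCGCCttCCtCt
MT-ND4L: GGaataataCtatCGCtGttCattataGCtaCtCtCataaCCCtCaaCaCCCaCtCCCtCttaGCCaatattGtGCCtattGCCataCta
CYBA (chr16:88643275-88651083, minus strand) and TSPO (chr22:43151547-43163242, plus strand) have 62.2% and 64.4% G and C in these stretches and were higher in state 2. NFAT5 (chr16:69565094-69704666, plus strand) and SLC4A7 (chr3:27372721-27484420, minus strand) have 40% and 48.9% and were lower. The stretch of SLC4A7 is richer in G and C than its whole transcript, which has 37.1%. KMT2D (chr12:49018975-49060794, minus strand), named after its values were seen, was lower with 66.7%. Its coding sequence has 16611 bases, so it went with the trend in length. MT-ND4L (chrM:10470-10766, plus strand) was lower although its coding sequence has only 294 bases. Its transcript has 43.1% G and C, near the median of 43.0% of the genes counted as lower.

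The 10 protein-coding genes with the largest positive differences, among those with a mean of at least 10 CPM and the same sign in 6 lines, were CYBA, WDR38, TMEM160, TSPO, C4orf48, MRPL12, ENSG00000284526, EVA1B, IFI27L2 and ATP5F1D, each with a log2 difference of at least 1.88. TSPO, a translocator protein of the outer mitochondrial membrane, had 17.999 to 47.4 CPM in state 1 (median 31.6) and 55.1 to 233 CPM in state 2 (median 111), a log2 difference of 2.02 (SD 0.66). ATP5F1D, the delta subunit of ATP synthase, had 29.7 to 60.5 CPM in state 1 (median 48.5) and 89.6 to 355 CPM in state 2 (median 143), a difference of 1.88 (SD 0.58). The states did not overlap in either gene, nor in 6 more of the 10. CYBA, the p22phox subunit of NADPH oxidase, and IFI27L2 overlapped. CYBA differed widely between lines, from 0.683 CPM in replicate 1 of β5 to 90.3 CPM in replicate 1 of the vector control, and its difference within a line was 1.18 to 2.67. TMEM160 has an exonic length of 655 nt and a GC content of 72.2%, and C4orf48 has 532 nt and 74.4%. ENSG00000284526, with 4781 nt and 50.5%, was the exception, and its difference of 1.96 was 1.97 after removal of the trend, against 1.14 for TSPO and 0.83 for ATP5F1D. It lies within the span of SNHG16 on the opposite strand, and the strand setting of the counting is not given in the sources used here, so that their reads may not be told apart.

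The 10 with the largest negative differences were NFAT5, FAT4, MFAP3, MED13L, GTF2I, ASH1L, SLC4A7, BTAF1, EP300 and MPDZ, with -2.99 to -2.02. In each of the 10 every state 2 library lay below every state 1 library. NFAT5, the transcription factor of the response to osmotic stress, had 27.3 to 72.2 CPM in state 1 (median 36.9) and 2.47 to 15.2 CPM in state 2 (median 4.29), a log2 difference of -2.99 (SD 0.63). Its highest state 2 value was that of replicate 4 of β10, followed by 8.14 and 7.51 CPM in replicates 2 and 3 of β5, the same 3 libraries that had a negative GC trend. SLC4A7, a sodium bicarbonate transporter, had 46.0 to 90.5 CPM in state 1 (median 66.5) and 5.42 to 30.3 CPM in state 2 (median 12.3), a difference of -2.13. EP300, a histone acetyltransferase, had 15.2 to 34.9 CPM in state 1 (median 24.2) and 2.79 to 9.71 CPM in state 2 (median 5.61), a difference of -2.10. The exonic lengths of the 10 genes ran from 8679 nt for BTAF1, an ATPase that acts on the TATA-binding protein, to 32862 nt for MED13L, a subunit of Mediator, and their GC contents from 37.1% to 49.8%. After removal of the trend their differences were -2.19 to -1.43. GTF2I has near-identical copies in the genome and its counts are uncertain.

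**Figure D4:**
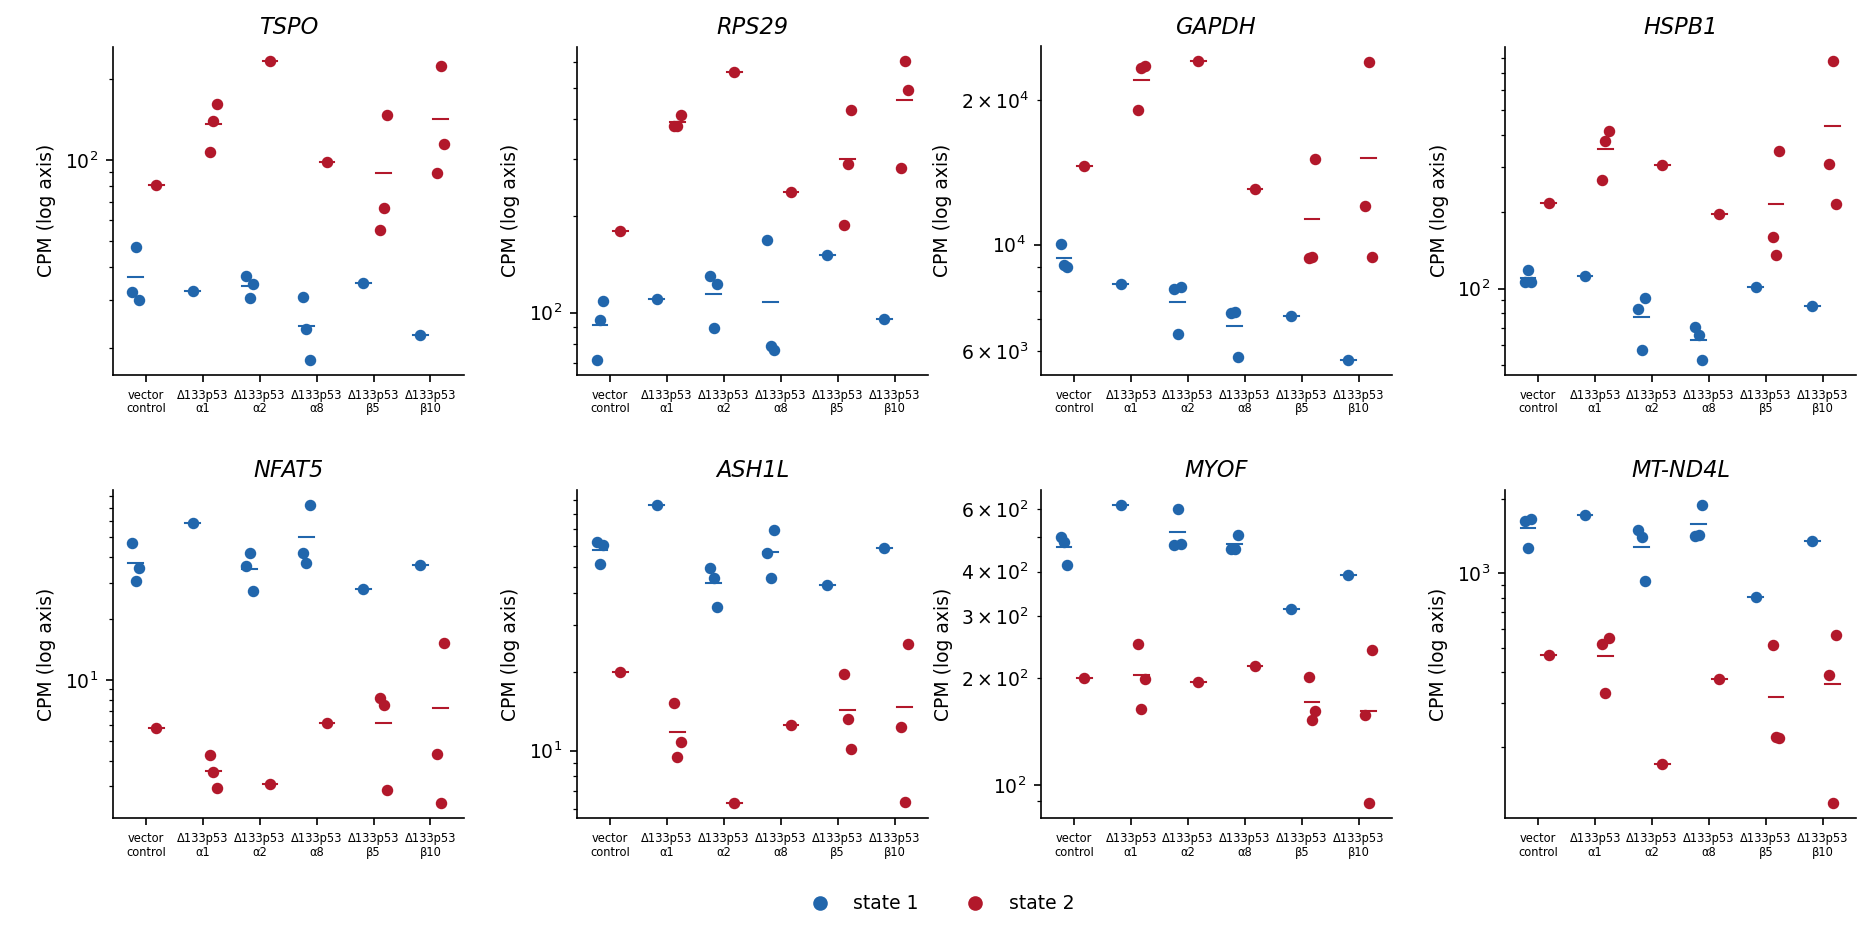
CPM on log axes of TSPO, RPS29, GAPDH, HSPB1, NFAT5, ASH1L, MYOF and MT-ND4L in the 24 libraries, by line, with 1 point for each library and a bar at the mean, blue for state 1 and red for state 2. NFAT5 lay at 27.3 to 72.2 CPM in state 1 and 2.47 to 15.2 CPM in state 2, and TSPO at 17.999 to 47.4 CPM and 55.1 to 233 CPM.

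The cytosolic ribosomal proteins were higher in state 2 nearly throughout. Their median exonic length was 3228 nt against 4306 nt for all genes, so the difference can follow in part from the sorting. Of the list 50 of 79 were counted as higher and 0 as lower, against 11.1% and 11.7% of all genes. The median log2 difference was 1.07 (line medians 0.75 to 1.41), against 0.00303 over all genes. In 65 of the 79 (82.3%) every state 2 library lay above every state 1 library, against 6.71% of all genes. RPS29, of the small subunit, had 71.3 to 168 CPM in state 1 (median 102) and 179 to 603 CPM in state 2 (median 381), a log2 difference of 1.58 (SD 0.61). RPLP0, of the ribosomal stalk, had 1964 to 2789 CPM in state 1 and 3391 to 7267 CPM in state 2, a difference of 1.05. The median was 1.04 after removal of the trend with exonic length and GC content and 0.90 with the transcript length in its place. Reads shared with the many pseudogenes of these genes make their levels uncertain. The translation factors, which work with the ribosome, had a median of -0.08, or 0.36 after removal of the trend, and 4 of 38 were counted as higher and 3 as lower. Among them were EIF6, a factor of the large subunit, with 1.20, and EIF3A, a scaffold of the initiation complex, with -1.30, while EEF1A1, the elongation factor, differed by 0.25 (-0.02 with total counts as the scale).

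Nuclear genes of the mitochondrion went the same way as the ribosome. The oxidative phosphorylation and mitochondrial ribosomal lists had median exonic lengths of 2545 nt and 2571.5 nt, against 4306 nt for all genes. Their differences can therefore follow in part from the sorting on exonic length. Of the oxidative phosphorylation subunits 36 of 74 were counted as higher and 0 as lower, against 11.1% and 11.7% of all genes. Their median was 0.99 (line medians 0.74 to 1.29), 0.95 after removal of the trend and 0.71 with total counts as the scale. In 60.8% of them every state 2 library lay above every state 1 library, against 6.71% of all genes. Their sums were 7115 to 8859 CPM in state 1 and 12500 to 22922 CPM in state 2. COX8A, a subunit of cytochrome c oxidase, had 15.02 to 37.5 CPM in state 1 (median 23.5) and 41.1 to 189 CPM in state 2 (median 88.8), a difference of 1.63. NDUFS8, a subunit of complex I, had 43.2 to 71.7 CPM in state 1 and 106 to 370.5 CPM in state 2, a difference of 1.63. ATP5F1B, the catalytic beta subunit of ATP synthase and the member with the highest CPM, had a smaller difference of 0.49, with 901 to 1182 CPM in state 1 and 1200 to 1702 CPM in state 2 and no overlap. Of the mitochondrial ribosomal proteins 20 of 76 were counted as higher and 0 as lower, with a median of 0.72 (0.44 with total counts as the scale), and MRPL41 had 33.6 to 77.6 CPM in state 1 and 102 to 339.8 CPM in state 2.

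The mRNAs made within the mitochondrion did not follow. Their median was 0.15, with line medians of -0.28 to 0.81 and -0.12 with total counts as the scale, and transcripts of the mitochondrial genome took 4.26% to 6.13% of the counts in state 1 and 3.52% to 7.21% in state 2. The 1 member counted was MT-ND4L, a subunit of complex I, with 802 to 1890 CPM in state 1 (median 1423) and 119 to 566 CPM in state 2 (median 382), a log2 difference of -1.95 (SD 0.49). Every state 2 library lay below every state 1 library. MT-ND4, which is carried on the same RNA and overlaps MT-ND4L by 7 bases, had 4155 to 6876 CPM in state 1 (median 5350) and 2933 to 12764 CPM in state 2 (median 5471) and differed by 0.15. MT-ATP8, of 207 nt, which overlaps MT-ATP6 by 46 bases, differed by -0.90 and MT-ATP6 by 0.38. MT-ND5 differed by -0.85 and MT-ND3 by 0.67. How reads over 2 genes were counted is not given in the sources used here, which makes the counts of the overlapping genes uncertain.

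The spliceosome, proteasome and small nucleolar RNA host gene lists had positive medians, with counts that differed. Of the small nuclear ribonucleoproteins of the spliceosome 6 of 24 were counted as higher and 0 as lower, with a median of 0.72 (0.46 with total counts as the scale) and sums of 1590 to 2717 CPM in state 1 and 3744 to 7311 CPM in state 2. LSM7, of the ring that binds the end of U6, had 23.6 to 55.8 CPM in state 1 and 72.6 to 226 CPM in state 2, and SNRPD2, a core Sm protein, 292 to 412 CPM in state 1 and 627 to 1572 CPM in state 2. Of the proteasome genes 2 of 31 were counted as higher, a smaller share than the 11.1% of all genes, and 0 as lower, with a median of 0.59 (0.33 with total counts as the scale) and sums of 4309 to 7532 CPM in state 1 and 7984 to 13767 CPM in state 2. PSMB3, a beta subunit, had 77.0 to 148 CPM in state 1 and 206 to 619 CPM in state 2. Of the host genes of small nucleolar RNAs 6 of 18 were counted as higher and 0 as lower, with a median of 0.80 (0.52 with total counts as the scale), and SNHG16 had 90.8 to 186 CPM in state 1 and 224 to 732 CPM in state 2. None of these 4 genes overlapped between the states. Among all genes, 6.71% had every state 2 library above every state 1 library. The median exonic lengths of the lists were 2385 nt, 4347 nt and 4593 nt in the order given, against 4306 nt for all genes. The difference of the spliceosome list can therefore follow in part from the sorting on exonic length.

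Glycolysis genes lay on both sides, with a positive median. Of its genes 5 of 20 were counted as higher and 0 as lower, against 11.1% and 11.7% of all genes. The median was 0.63 (line medians 0.19 to 0.77), or 0.35 with total counts as the scale. GAPDH had 5746 to 10011 CPM in state 1 (median 7649) and 9380 to 24091 CPM in state 2 (median 14849), a log2 difference of 1.13 (SD 0.43). The 3 state 2 libraries with a negative GC trend had its 3 lowest values in that state, 9380, 9444 and 9420 CPM, and these overlapped with state 1. TPI1, triosephosphate isomerase, had 675 to 1082 CPM in state 1 (median 822) and 1239 to 2818 CPM in state 2 (median 1843), a difference of 1.20, with no overlap. Of the 20 genes, 2 (10%) had every state 2 library above every state 1 library and 2 (10%) had every one below. These shares were near the 6.71% and 5.99% of all genes. Beside TPI1 the genes without overlap are named after their values were seen. ENO1, enolase, differed by 0.85 with 3929 to 7122 CPM in state 2 against 2558 to 3851 CPM in state 1. HK2, a hexokinase, differed by -0.92 with 31.6 to 58.2 CPM against 63.7 to 134 CPM, and SLC16A1, a lactate transporter, by -0.77 with 40.1 to 87.2 CPM against 87.4 to 135 CPM. The list's median was 0.47 after removal of the trend with exonic length and 0.28 with transcript length. The hypoxia response, which shares regulators with glycolysis, had a median of -0.14, which was 0.32 after removal of the trend. Of its genes 2 of 20 were counted as higher, near the 11.1% of all genes, and 1 as lower. Its sums were 539 to 1071 CPM in state 1 and 373 to 985 CPM in state 2. EGLN1, the oxygen-sensing hydroxylase, had 5.34 to 12.6 CPM in state 1 and 2.40 to 9.20 CPM in state 2, and DDIT4, an inhibitor of mTOR signalling, differed by 1.04 with an SD of 1.21.

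The stress lists did not separate the states. Their counts stand against 11.1% of all genes counted as higher and 11.7% counted as lower. For the integrated stress response 2 of 23 were counted as higher and 0 as lower, and the median of 0.50 came with line medians of -0.47 to 1.55. The median was 0.20 with total counts as the scale, 0.22 after removal of the trend and 0.31 without replicate 1 of α2. Its sums were 1658 to 5826 CPM in state 1 and 1968 to 8761 CPM in state 2, and the highest sum of each state belonged to a library of α2. CHAC1, a target of ATF4 that degrades glutathione, differed by 4.02 in α2 and by -0.31 in the vector control. The negative value in the control rests on replicate 3, in state 1, with 72.0 CPM. The state 2 library of the control had 22.2 CPM and its other state 1 libraries 15.9 and 18.3 CPM. The endoplasmic reticulum chaperones had a median of 0.09 (-0.18 with total counts as the scale), and 1 of 20 were counted as higher and 1 as lower. These were SDF2L1, of 1059 nt and 65.1% GC, with 4.66 to 23.9 CPM in state 1 and 20.2 to 118 CPM in state 2, and SEL1L, a part of the degradation machinery, of 9553 nt and 39.3% GC, with 59.8 to 90.03 CPM in state 1 and 14.6 to 42.5 CPM in state 2. The heat shock list had a median of -0.08 and 0.09 after removal of the trend, and 1 of 19 were counted as higher and 0 as lower. The one counted was HSPB1, a small heat shock protein of 1623 nt and 65.3% GC, with 52.5 to 119 CPM in state 1 (median 88.6) and 135 to 778 CPM in state 2 (median 286), while HSPA8, the constitutive HSP70, differed by -0.05.

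Other signal-responsive lists had members on both sides, as did all genes, of which 11.1% were counted as higher and 11.7% as lower. The counts of the NRF2 targets were near these shares. Of the NRF2 targets, which answer oxidative stress, 2 of 23 were counted as higher and 3 as lower, with a median of 0.61 that was 0.16 after removal of the trend. FTL, the ferritin light chain, differed by 1.04 and TXNRD1, thioredoxin reductase, by -1.23. Of the immediate early genes 1 of 24 were counted as higher and 1 as lower, with a median of -0.14, and these were JUND with 1.23 and FOS with -1.30, both subunits of AP-1. Of the interferon response 6 of 19 were counted as higher and 0 as lower, with a median of 0.13 (-0.14 with total counts as the scale), led by IFI6 with 1.51 and IFITM3, which blocks viral entry, with 1.41. Of the cholesterol synthesis genes 4 of 23 were counted as higher and 1 as lower, with a median of 0.10 (-0.19 with total counts as the scale), among them CYP51A1, the lanosterol demethylase, with -2.19 and PMVK, phosphomevalonate kinase, with 1.36.

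The YAP and TEAD targets and the matrix genes had negative medians. Of the YAP and TEAD targets 0 of 19 were counted as higher and 4 as lower, against 11.1% and 11.7% of all genes. Their median was -0.60 (line medians -0.71 to -0.38) and -0.50 after removal of the trend. CRIM1, a membrane protein that binds BMPs, had 178 to 354 CPM in state 1 (median 264) and 31.6 to 135 CPM in state 2 (median 71.9), a difference of -1.80 (SD 0.54). MYOF, which acts in membrane repair, had 314 to 617 CPM in state 1 (median 478) and 88.8 to 250.2 CPM in state 2 (median 197), a difference of -1.26 (SD 0.25). Neither gene overlapped between the states, but the sums of the list did, with 2760 to 5420 CPM in state 1 and 2944 to 4938 CPM in state 2, and AXL, a receptor tyrosine kinase, differed by 0.22 (-0.04 with total counts as the scale). Of the extracellular matrix genes 2 of 40 were counted as higher and 5 as lower, the latter a share near the 11.7% of all genes. The median was -0.28, or -0.13 without replicate 1 of α2 and -0.54 with total counts as the scale, and the line medians were -0.75 to 0.15, positive in 2 of 6 lines. The sums of the list were 986 to 2004 CPM in state 1 and 987 to 2164 CPM in state 2. COL12A1, a collagen, differed by -1.84, and FBN2 and FBN1, which encode fibrillins, by -1.55 and -1.47. LTBP4, which binds latent TGF-beta and has 67.2% GC, differed by 1.00.

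Proliferation genes overlapped. The S phase list summed to 2759 to 6345 CPM in state 1 and 5843 to 6820 CPM in state 2, with a median of -0.13 that was 0.13 after removal of the trend, and 0 of 43 were counted as higher and 2 as lower. The G2 and mitosis list summed to 5682 to 10880 CPM in state 1 and 9744 to 11759 CPM in state 2, with a median of -0.27, and 1 of 55 were counted as higher and 4 as lower. The low end of state 1 in both lists is replicate 3 of the vector control, without which state 1 ran from 4998 to 6345 CPM and from 9154 to 10880 CPM. Members differed in opposite directions, with CASP8AP2, of 8147 nt and 38.12% GC, at -1.74, ANLN, the cytokinesis scaffold anillin, at -1.36, MCM7, of the replicative helicase, at 0.67 and TUBB4B, a tubulin of 2037 nt and 59.3% GC, at 0.91.

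The most negative medians among the lists of more than 10 genes were those of very long genes, which follows at least in part from the sorting on exonic length. Of the large chromatin regulators 1 of 36 were counted as higher and 24 as lower, with a median of -1.25 (line medians -1.62 to -0.79) and -0.66 after removal of the trend. Their sums were 2019 to 3537 CPM in state 1 and 1229 to 1811 CPM in state 2. KMT2C, a histone methyltransferase, had 17.99 to 45.4 CPM in state 1 (median 26.8) and 4.31 to 12.6 CPM in state 2 (median 7.58), a difference of -1.90. KMT2D, its paralog, had 59.5 to 194 CPM in state 1 (median 109) and 16.3 to 59.3 CPM in state 2 (median 36.6), a difference of -1.82 despite 59.8% GC and of -1.74 after removal of the trend. Of the nuclear pore and giant scaffold genes 0 of 36 were counted as higher and 16 as lower, with a median of -0.93 and -0.45 after removal of the trend. UTRN, which encodes utrophin, had 35.1 to 76.2 CPM in state 1 and 7.42 to 26.5 CPM in state 2, and FLNA, filamin A, of 10860 nt and 62.3% GC, differed by 0.08 (-0.20 with total counts as the scale). STAB1, a scavenger receptor gene of 10588 nt and 62.6% GC that was named after its values were seen, went the other way, with 5.45 to 11.98 CPM in state 1 (median 9.11) and 16.1 to 91.0 CPM in state 2 (median 33.2), a difference of 1.77. Of the 431 zinc finger genes 22 were counted as higher and 64 as lower, against 11.1% and 11.7% of all genes. Their median of -0.46 was -0.10 after removal of the trend.

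**Figure D5:**
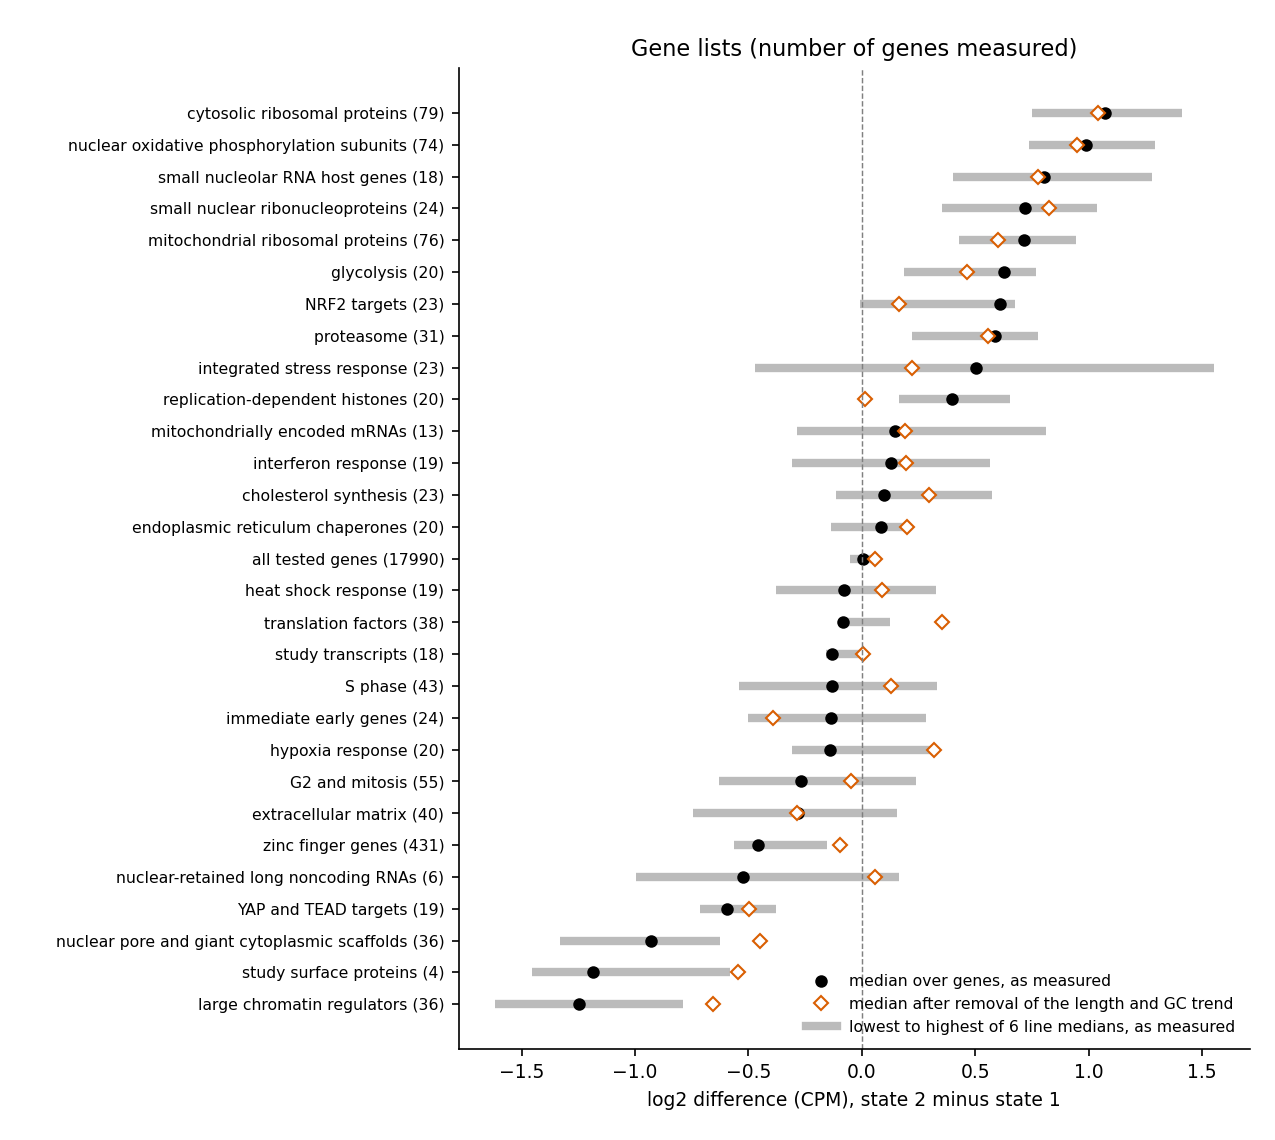
Median log2 difference in CPM of state 2 minus state 1 for each gene list and for all genes, with points as measured, grey bars from the lowest to the highest of the 6 line medians, and diamonds after removal of each library's trend with exonic length and GC content. The ribosomal proteins went from 1.07 to 1.04 and the large chromatin regulators from -1.25 to -0.66.

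RNAs that poly(A) selection should leave out were rare in both states. The replication-dependent histones took 0.00611% to 0.0182% of the counts in state 1 and 0.00608% to 0.0147% in state 2. Of these genes 2 of 20 were counted as higher and 1 as lower, against 11.1% and 11.7% of all genes. Their median of 0.40 was 0.01 after removal of the trend. Other RNAs without a tail took 0.000219% to 0.000479% and 0.000438% to 0.000932%. The 2 of them that were measured, RN7SL1, the RNA of the signal recognition particle, and SNORD3A, the U3 RNA, differed by 1.37 and 1.12, and RN7SL1 lies within the span of RPS29 on the opposite strand. Of the long noncoding RNAs kept in the nucleus 0 of 6 were counted as higher and 0 as lower, with a median of -0.53 that was 0.06 after removal of the trend. TUG1 had 129.8 to 186 CPM in state 1 and 74.3 to 105 CPM in state 2, with no overlap, whereas MALAT1 and NEAT1 differed by -0.78 and -0.20.

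The transcripts the study names for the isoforms, a list it chose on these samples, were mostly not counted. Counting needed the same sign in 6 of 6 lines, which genes at or near 0 in the clones, such as RIPK4 and SOX9, could hardly meet. For such genes the count does not show whether they differed between the states. In the single state 2 library of the vector control RIPK4 had 4.38 CPM, against 1.65 to 2.29 CPM in its state 1 libraries. SOX9 had 53.4 CPM there, against 23.9 to 71.1 CPM. Of the list 1 of 18 were counted as higher and 0 as lower, with a median of -0.13. The one counted was TPM2, a tropomyosin, with 134 to 270.2 CPM in state 1 (median 202) and 253 to 700.2 CPM in state 2 (median 401) and overlap. Of the genes of the study's 6 cell surface proteins 4 were measured. ACVRL1 and FLT1, with at most 9 and 5 counts in any library, did not pass the filter on low counts. Of the 4 measured, 0 were counted as higher and 3 as lower, against 11.1% and 11.7% of all genes. ITGA5 went the other way, with a difference of 0.28. EGFR had 85.0 to 142 CPM in state 1 (median 123) and 28.2 to 65.0 CPM in state 2 (median 44.9), a difference of -1.46 (SD 0.36), and MET, the receptor of hepatocyte growth factor, 56.2 to 78.6 CPM in state 1 (median 65.7) and 22.9 to 47.2 CPM in state 2 (median 31.0), a difference of -1.05 (SD 0.38). TFRC, the transferrin receptor, had 72.5 to 507 CPM in state 1 (median 382) and 47.7 to 313 CPM in state 2 (median 158), a difference of -1.32. EGFR and MET did not overlap between the states and TFRC did. After removal of the trend these differences were -0.91, -0.58 and -0.51. State 2 holds 1 of 4 vector control libraries, 5 of 12 Δ133p53α libraries and 6 of 8 Δ133p53β libraries, so that the state was not balanced over the isoforms, and its part in the study's comparisons of lines was not tested here.

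The size of the difference between the states varied from line to line. Regressed across genes on the mean of the other 5 lines, it had a slope of 1.25 in α1, 1.29 in α2, 0.89 in α8, 0.63 in β5, 1.08 in β10 and 0.66 in the vector control. Between 79.5% and 91.0% of genes had the sign of that mean. Of the sum of squares of log2 CPM over all genes, 38.4% lay between lines, 30.6% between the states within lines, 7.33% in the interaction of state and line and 23.6% among libraries of the same line and state. Line was entered first and the states were not balanced over the lines, so the share between lines can hold part of the state difference. The share of the state comes from libraries sorted on these same values.

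Whether single genes differed between lines in their state difference was tested as an interaction in edgeR's quasi-likelihood test with 12 residual degrees of freedom. The sorting did not compare lines, but it used the same expression values, so the p-values are not independent of it. For any line, 0 of 17990 genes (0%) passed an adjusted p of 0.05, with 235 at an unadjusted p under 0.05, 0 in limma voom, and 3 in DESeq2, which were ENSG00000273443, EEF1A1P11 and SPDL1. Between the Δ133p53β and the Δ133p53α lines 0 genes (0%) passed in edgeR, with 215 at an unadjusted p under 0.05, and 0 in DESeq2 and limma voom. In each line 1 of the states is a single library, whose spread was taken from the others, and a gene that did not pass is not shown to act alike in the lines.

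Between the clones and the vector control 1 gene (0.00556%) passed in edgeR, with 877 at an unadjusted p under 0.05. It was ENSG00000273443, a long noncoding RNA gene (chr1:1062208-1063288, minus strand). It had 80.2 CPM in replicate 1 of the vector control, the only state 2 library of that line, and 0.787 to 3.94 CPM in the other 23 libraries. Its state difference was 5.22 in the vector control and 0.47 to 0.94 in the 5 clones, and the interaction was -4.38 on the log2 scale (edgeR, adjusted p = 0.00338). The value rests on 1 library, and without it the interaction could not be fitted.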

How the data were processed

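The libraries were strand-specific poly(A) mRNA libraries of H1299 lines. The authors trimmed the reads, used HISAT2 for alignment (GRCh38) and featureCounts for counts per gene, and the deposited table holds these raw counts for 24 libraries. The strand and multimapping settings of the counting are not given in the sources used here, and 1 row without a gene name, with 0 reads, was left out. Totals were 21531599 to 25381731 counts. Any precision drawn from counts covers counting error only. The 2 states, the gene lists and the tests were chosen with earlier results of these data known. Of 60564 rows, 17990 genes passed filterByExpr of edgeR (version 4.0.16, R 4.3.3) and were scaled by TMM. The state difference with the line as a term came from edgeR's quasi-likelihood fit. The log2 CPM values of the libraries, from which the differences within lines came, had a prior count of 2. State by line interactions were tested in edgeR over all genes with Benjamini-Hochberg adjustment, two-sided, and the total count by an exact two-sided permutation within lines. Lengths and GC content came from the GENCODE annotation of GRCh38 for 17864 genes (99.3%). Each library's trend with both was fitted with mgcv (version 1.9.3, 5 basis functions per axis) and removed. Named genes were the 10 protein-coding genes with the largest difference in each direction with a mean of at least 10 CPM and 1 sign in 6 lines, up to 3 members of each list with the largest difference and its member with the highest CPM, the genes the study names and the cell type markers. Other genes, such as overlap partners of a named gene, were added after their values were seen. Alternatives were DESeq2 (version 1.42.0), limma voom (version 3.58.1), other scales and filters, a replicate block, and leaving out libraries. Scaling by total counts alone, the trend with transcript length and the total count without the 3 highest libraries were chosen after seeing the data. The scripts were tested on simulated data. Some genes are not reported here.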

Additional observations from a re-analysis of the deposited data

Results flagged for a closer look

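Within the 4 libraries of each line, 42 checks for a library far from the other 3 marked 10 values. Chance marks about 1 in 20 such groups, but 5 of the 10 are the value that sorted the libraries and others follow it, so that nothing is read from their number. The correlation with exonic length, which sorted the libraries, was 0.303 in replicate 1 of α1, -0.240 in replicate 1 of α2, -0.216 in replicate 2 of α8, 0.2505 in replicate 1 of β10 and -0.116 in replicate 1 of the vector control. The correlation with GC content was 0.518 in replicate 1 of α2 against -0.485 to -0.420 in the other 3 libraries. The ribosomal share of that library was 13.6% against 6.42% to 7.45%. The shortest of 4 bins of genes by exonic length took 17.99% of the counts in replicate 2 of α8 against 14.2% to 14.7%. The total count was 25381731 in replicate 1 of the vector control against 21722129 to 21953986, and 21531599 in replicate 4 of α8, which was not alone in its state, against 21849351 to 21887789. The state difference of ENSG00000273443 differed between the clones and the vector control by -4.38 on the log2 scale in edgeR's interaction test, with 1 library behind the value of the control.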

How the results depend on the processing

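With total counts as the only scale 854 genes were higher and 3410 lower in state 2, with the trend in exonic length and GC content removed 784 and 1160, with transcript length in that trend 682 and 1109, and with a log2 difference of at least 0.5 as the limit 4612 and 4383. Other settings gave 1531 to 2385 higher and 1699 to 2650 lower, and leaving out each library in turn 1689 to 2418 and 1865 to 2485. With the replicate number as a block the counts were 2179 and 2188. Among the 18 libraries that were not alone in their line and state, those of the same number in different lines had a median correlation of 0.0242 (40 pairs, -0.505 to 0.516) against -0.0106 for different numbers, so that the numbers did not pair these libraries. The 6 lone libraries, 5 of them replicate 1, could not be checked. Without the filter on low counts the interaction tests called 107 genes for any line, 21 for the clones against the control and 5 for Δ133p53β against Δ133p53α, and DESeq2 called 3 and 2 for the first pair. Leaving out each library gave 0 to 1, 1 to 2 and 0 genes. Without replicate 3 of the vector control ENSG00000273443 also passed for any line, and without replicate 4 of the vector control SPDL1 passed beside it for the clones. The interaction was not fitted with the block, with total counts as the scale or without the 3 highest totals, and could not be had for the control without its replicate 1. The difference in total count was 102901 without the 3 highest totals (exact permutation p = 0.0859) and 541189 to 1254956 when each library was left out, with the lowest value and an exact permutation p of 0.0771 without replicate 1 of the vector control. The median of the histones was -0.0305 with transcript length in the trend and that of the study's transcripts 0.00378 with exonic length. Of the other values of named genes, 1271 moved by less than the SD over lines and 31 by more, and of the list medians 288 and 40. The cause of these changes was not tested. Genes near 0 counts are limited by depth.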
